A study of Mus musculus with 40 samples.

Results

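The genes of mitochondrial oxidative phosphorylation were followed in RNA from whole mouse lung, 6 h and 24 h after aspiration of an allergen or of phosphate-buffered saline (PBS) alone. Members were all genes on the array whose symbol begins with Ndufa, Ndufb, Ndufc, Ndufs, Ndufv, Uqcr, Cox4 to Cox8 or Atp5, or is Sdha, Sdhb, Sdhc or Sdhd. Of 12393 genes measured, 84 met this rule. The muscle isoforms Cox6a2, Cox7a1 and Cox8b were set apart, and counts below refer to the other 81 members unless they name a muscle isoform. A further 9 symbols of these families (Ndufa11, Ndufa11b, Ndufab1-ps, Ndufb4, Ndufb4b, Ndufb4c, Ndufs5-ps, Ndufs6 and Ndufs6b) stood only on probe sets that carry several symbols and were not used here.

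The 40 one-colour arrays formed 8 groups of 5, which crossed 2 strains (AJ and C3H), 2 treatments (allergen or PBS) and 2 times (6 h and 24 h). The titles call the allergen OVA and the descriptions call it HDM, so it is called allergen here. The 40 descriptions all name AJ, which they term hyperresponsive, whereas 20 titles carry C3H, so strain follows the titles. Age, sex and prior sensitisation are not given in the sources used here, and the labels do not say whether the replicates of a group are separate mice, so p-values measure only the spread between these samples, which may be technical. With 5 arrays a group, precision is limited by their number.

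Oxidative phosphorylation runs on the inner mitochondrial membrane. Complexes I and II take electrons from NADH and succinate, complex III passes them to cytochrome c, complex IV hands them to oxygen, and complex V (ATP synthase) makes ATP from the proton gradient that complexes I, III and IV build. Nearly all subunits are nuclear genes, whose promoters often carry sites for NRF1, GABPA and other ETS factors, YY1 or estrogen-related receptors. In lung, surfactant-making alveolar cells and ciliated cells are rich in mitochondria, while heart and skeletal muscle use their own isoforms of several complex IV subunits.

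Levels are given as log2(intensity + 16), and differences are on this same log2 scale, which understates the change of dim genes. The members were bright: their median level was 9.01 for the 34 complex I genes, 9.20 for the 4 of complex II, 9.34 for the 8 of complex III, 10.17 for the 13 of complex IV and 9.75 for the 17 of complex V. The 5 complex I assembly factors (Ndufaf genes, which help build the complex without being part of it) were dimmer, with a median of 6.83. Probe sets differ in brightness for reasons other than RNA amount, so these medians describe signal and do not rank the complexes. The brightest member of each complex, by its mean over 40 arrays, was Ndufb9 (10.40) in complex I, Sdhb (9.73) in complex II, Uqcrb (11.28) in complex III, Cox6a1 (11.01) in complex IV and Atp5g3 (11.10) in complex V. None of these 5 passed the test in any of the 12 comparisons. At the dim end were Cox7c at 5.39, Ndufb1 at 6.47 and Ndufaf7 at 6.10. Ndufa4 was counted with complex I by its symbol, although its protein is now placed in complex IV.

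Lung markers were strong on every array. The summed intensity of 8 alveolar epithelial markers ran from 21032 to 33369 and that of 4 club cell markers from 13084 to 20112. Muscle markers were also present and varied widely: 12 skeletal muscle markers summed to between 384 and 15375, and 12 cardiac markers to between 1615 and 13692. Whole lung can carry cardiac-type muscle in the walls of pulmonary veins and traces of neighbouring tissue. In RNA from a mixed tissue, fewer cells of a type and less RNA per cell cannot be told apart.

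Promoter windows of 250 bases before to 50 bases after the start site were taken from RefSeq (GRCm38.p6), and 70 of the 84 members had at least 1. Among the 68 members with a window outside the muscle isoforms, the NRF1 motif GCGCATGCG stood in 9 (13.2%) against 1.95% of all 27025 genes with a window. The YY1 motif AAGATGGCG stood in 6 members (8.82%, all genes 1.64%), the ETS motif CCGGAAGT in 5 (7.35%, all genes 4.31%) and the estrogen-related receptor motif TCAAGGTCA in 2 (2.94%, all genes 0.466%). Both strands were searched for the exact letters, and none of the motifs overlapped in the windows printed here. Holders of the NRF1 motif were Atp5g2, Atp5k, Atp5l, Cox6a1, Ndufa8, Ndufaf4, Ndufaf5, Uqcr11 and Uqcrc1, and holders of the YY1 motif were Atp5j, Atp5j2, Ndufa9, Ndufc1, Ndufs4 and Ndufs7. A match is a description of letters and does not show that a factor binds.

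The windows below belong to some of the members that passed the test, 5′ to 3′ on the strand of the gene, with motif matches in capitals. Ndufc1, Ndufs7, Uqcr11 and Sdhd each hold a motif. Other members that passed hold none of the motifs, among them Ndufb10, Ndufb7, Atp5e, Ndufv1 and Atp5g1. Whether the motifs go with the changes was not tested. Ndufc1, Ndufs7 and Uqcr11 were higher at 24 h than at 6 h in AJ mice given PBS, and Sdhd had the largest rise with allergen in C3H mice. Ndufc1 (chr3:51408906-51409205, minus strand) and Ndufs7 (chr10:80249199-80249498, plus strand) carry the YY1 motif, which begins 23 and 25 bases after the start site. Uqcr11 (chr10:80406772-80407071, minus strand) carries the ETS motif from base -66 and the NRF1 motif, read on the opposite strand, from base -5. Sdhd (chr9:50603800-50604099, minus strand) carries the estrogen-related receptor motif on the opposite strand from base 37.
Ndufc1: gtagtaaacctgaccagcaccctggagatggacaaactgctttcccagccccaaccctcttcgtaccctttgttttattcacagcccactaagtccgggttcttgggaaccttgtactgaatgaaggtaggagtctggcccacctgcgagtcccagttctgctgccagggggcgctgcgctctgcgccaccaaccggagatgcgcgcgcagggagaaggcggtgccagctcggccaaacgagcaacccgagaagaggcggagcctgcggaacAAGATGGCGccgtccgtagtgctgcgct
Ndufs7: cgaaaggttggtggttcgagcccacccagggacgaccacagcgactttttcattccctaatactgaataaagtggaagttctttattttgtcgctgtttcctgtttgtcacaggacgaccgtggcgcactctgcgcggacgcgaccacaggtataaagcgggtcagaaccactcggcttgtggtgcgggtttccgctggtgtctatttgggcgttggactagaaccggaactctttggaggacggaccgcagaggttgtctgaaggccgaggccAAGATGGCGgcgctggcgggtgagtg
Uqcr11: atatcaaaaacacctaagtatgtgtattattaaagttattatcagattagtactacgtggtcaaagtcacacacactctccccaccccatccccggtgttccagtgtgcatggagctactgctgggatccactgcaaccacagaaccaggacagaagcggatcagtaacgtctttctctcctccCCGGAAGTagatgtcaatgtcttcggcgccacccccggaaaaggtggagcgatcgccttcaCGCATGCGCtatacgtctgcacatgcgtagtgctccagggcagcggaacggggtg
Sdhd: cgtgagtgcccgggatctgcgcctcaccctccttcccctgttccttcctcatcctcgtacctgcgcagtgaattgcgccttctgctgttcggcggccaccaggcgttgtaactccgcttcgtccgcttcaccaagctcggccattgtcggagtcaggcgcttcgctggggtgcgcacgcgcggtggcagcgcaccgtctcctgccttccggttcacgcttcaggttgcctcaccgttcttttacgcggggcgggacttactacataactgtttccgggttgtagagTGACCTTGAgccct

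Cox8a and Cox8b encode the broadly expressed and the muscle isoform of the same complex IV subunit, and their windows are shown because the genes differed in their values. Cox8a (chr19:7217567-7217866, minus strand) holds the ETS motif on the opposite strand from bases -6 and 32. Cox8b (chr7:140900397-140900696, minus strand) holds none of the 4 motifs. The other isoforms did not repeat this contrast: the broadly expressed Cox7a2 and the muscle isoform Cox7a1 both hold none. Cox6a1 holds the NRF1 motif, and its muscle form Cox6a2 had no window.
Cox8a: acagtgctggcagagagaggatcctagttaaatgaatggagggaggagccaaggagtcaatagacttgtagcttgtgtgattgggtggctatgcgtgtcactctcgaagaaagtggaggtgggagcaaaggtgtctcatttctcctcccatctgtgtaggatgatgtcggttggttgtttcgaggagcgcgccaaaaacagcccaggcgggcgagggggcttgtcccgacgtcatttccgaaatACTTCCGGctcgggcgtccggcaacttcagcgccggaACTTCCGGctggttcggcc
Cox8b: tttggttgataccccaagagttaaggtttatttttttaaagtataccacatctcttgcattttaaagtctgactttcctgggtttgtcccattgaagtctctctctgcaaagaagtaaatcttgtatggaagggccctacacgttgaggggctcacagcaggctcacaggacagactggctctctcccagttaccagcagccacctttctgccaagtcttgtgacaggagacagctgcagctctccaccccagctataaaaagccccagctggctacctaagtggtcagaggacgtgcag

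Averaged over the 81 members, the group means lay close together at 6 h and were spread out at 24 h. The mean was 9.01 ± 0.10 (SD, n = 5) in AJ PBS 6 h, 9.04 ± 0.08 in AJ allergen 6 h, 9.0 ± 0.15 in C3H PBS 6 h and 8.96 ± 0.11 in C3H allergen 6 h. At 24 h it was 9.29 ± 0.09 in AJ PBS, 9.14 ± 0.08 in AJ allergen, 9.12 ± 0.13 in C3H PBS and 9.34 ± 0.12 in C3H allergen. The 2 highest groups were therefore AJ without allergen and C3H with allergen, both at 24 h. Arrays of the AJ PBS groups did not overlap, at 9.17 to 9.39 at 24 h and 8.92 to 9.14 at 6 h. The same mean over all 12393 genes stayed between 6.83 and 6.89 in the 8 groups.

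**Figure D1:**
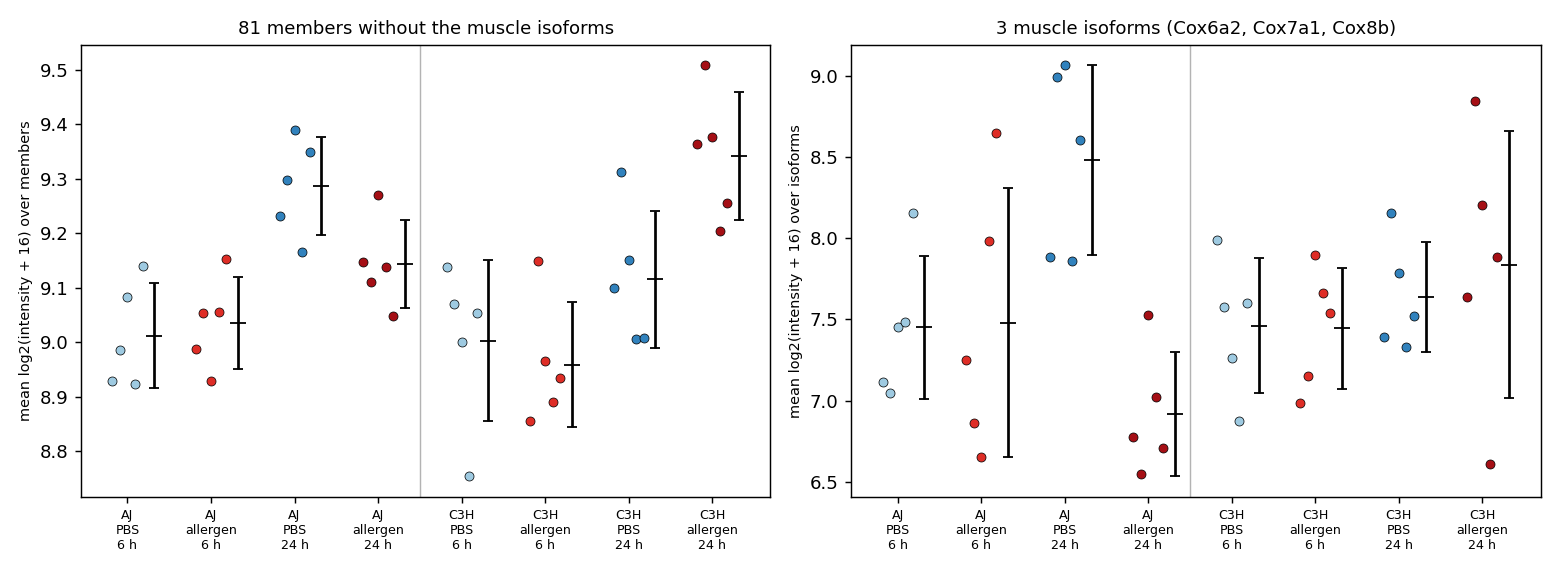
Mean log2(intensity + 16) over the 81 members (left) and over the 3 muscle isoforms (right), 1 point per array, with the group mean and SD of 5 arrays drawn for each of the 8 groups. The member mean is highest in AJ PBS 24 h (9.29) and C3H allergen 24 h (9.34), and the muscle isoform mean in AJ at 24 h lies between 7.86 and 9.06 with PBS and between 6.55 and 7.53 with allergen.

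The largest shift of the members in AJ mice came with time and without allergen. From 6 h to 24 h after PBS, 10 members rose and 0 fell, and 72 of 81 differences were above 0, with a median of 0.30 against -0.02 over all genes. The share called among all genes was 2.9% higher and 2.48% lower, against 12.3% and 0% of members (limma, adjusted p below 0.05 after Benjamini-Hochberg over all genes). Of all called genes 53.9% were higher, or 40.4% with each array centred on its median, which left the member median at 0.27. Those that rose were 5 of 34 complex I genes (Ndufs7, Ndufb10, Ndufab1, Ndufc1 and Ndufb7), 3 of 8 in complex III (Uqcrc1, Uqcr11 and Uqcrq) and 2 of 17 in complex V (Atp5d and Atp5e). No gene of complexes II or IV passed, although their median differences were 0.26 and 0.24. Groups did not overlap for 9 of 81 members, against 6.16% of all genes.

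Ndufc1, an accessory subunit of the membrane arm of complex I, had levels of 8.70, 8.82, 8.63, 8.73 and 9.21 at 6 h and 9.38, 9.40, 9.62, 9.36 and 9.72 at 24 h. Every 24 h array lay above every 6 h array. The rise was 0.68 ± 0.12 (SE; adjusted p = 0.000708, limma), a 1.60-fold change. Its second probe set differed by 0.86 in the same direction.

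Uqcr11, a small subunit of complex III, read 8.37, 8.79, 8.22, 8.66 and 9.02 at 6 h and 9.44, 9.42, 9.43, 9.05 and 9.55 at 24 h, again without overlap. It rose by 0.77 ± 0.16 (SE; adjusted p = 0.00337, limma). Ndufc1 and Uqcr11 were the 2 of the 10 that passed in each of the 20 alternatives tried. Uqcr11 has only 1 probe set, so the mean of all probe sets left its values unchanged and was no test of it. Uqcrq, another small complex III subunit, rose by 0.78 ± 0.15 (adjusted p = 0.00164, limma) on its bright probe set, while its 3 dimmer probe sets gave differences of -0.38, 0.01 and 0.03. With all probe sets averaged, its difference was 0.11 (adjusted p = 0.578). Atp5e, the epsilon subunit in the central stalk of ATP synthase, rose by 0.79 ± 0.20 (adjusted p = 0.0144), and Atp5d, its delta partner, by 0.49 ± 0.13 (adjusted p = 0.0193). Ndufb7, an accessory subunit of complex I, rose by 0.69 ± 0.18 (adjusted p = 0.0163). Ndufab1, the mitochondrial acyl carrier protein, rose by 0.59 ± 0.15 (adjusted p = 0.0156), but its dimmer probe sets differed by 0.17 and 0.01, and the call was lost with all probe sets averaged (0.26, adjusted p = 0.106).

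Ciliated cell and skeletal muscle markers were also higher at 24 h in this comparison. The summed intensity of 5 ciliated cell markers ran from 1048 to 1422 at 6 h and from 1607 to 1772 at 24 h, without overlap, and 1 of 5 passed as higher, with a median difference of 0.44. Its part in the result was not tested. The skeletal muscle sum overlapped: it ran from 519 to 9583 at 6 h and from 4539 to 15375 at 24 h, and 1 of 12 passed as higher, with a median difference of 2.22. The cardiac median difference was -0.00, and of 8 endothelial markers 1 passed in each direction. With the mean of both muscle lists as a covariate, 3 members passed as higher, namely Ndufc1, Uqcr11 and Uqcrq, and the median member difference was 0.18. The skeletal markers in that covariate themselves differed between these groups, so the fit cannot tell muscle content and time apart. Without AJ PBS 24 h replicate 3 the count was 6, without replicate 4 it was 19, and without AJ PBS 6 h replicate 5 it was 16. Single calls were also lost without AJ PBS 24 h replicate 2 (Uqcrc1) or 5 (Atp5e and Ndufb10), and without AJ PBS 6 h replicate 1 (Ndufb10 and Uqcrc1), 2 (Ndufb10 and Uqcrc1) or 3 (Atp5d, Atp5e and Uqcrc1).

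Other mitochondrial genes in the same arrays gave few calls from 6 h to 24 h in AJ PBS mice. Of 9 fatty acid oxidation genes 1 rose (Echs1, enoyl-CoA hydratase, 0.53 ± 0.14; adjusted p = 0.0229, limma), as did 2 of 74 mitochondrial ribosomal genes and 1 of 12 assembly factors of complexes III to V (Bcs1l, which inserts the Rieske protein into complex III, 1.17 ± 0.31; adjusted p = 0.0216). None of 14 tricarboxylic acid cycle genes passed, and their median difference was 0.20. Among 14 glycolytic genes 1 rose (Tpi1, 0.69 ± 0.16; adjusted p = 0.00743). Cpt1a, which admits fatty acids to the mitochondrion, fell by 0.51 (SE 0.15; adjusted p = 0.0372), the 1 of 10 carriers and channels to pass.

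In C3H mice given PBS the same interval gave 2 rises and 0 falls, with a median member difference of 0.08 and 63 of 81 above 0. The share called among all genes was 1.76% higher and 1.45% lower. Atp5pb, a subunit of the peripheral stalk of ATP synthase, rose by 0.43 ± 0.12 (SE; adjusted p = 0.0293, limma) from 9.58 ± 0.17 to 10.01 ± 0.15 (SD, n = 5), and its second probe set differed by 0.46. Ndufa6, an accessory complex I subunit, rose by 0.49 ± 0.14 (adjusted p = 0.0410). Its levels overlapped, at 8.19 to 8.75 against 8.68 to 9.03. The count was 6 without C3H PBS 6 h replicate 1, fell to 1 without C3H PBS 6 h replicate 4 or 5 or C3H PBS 24 h replicate 1 or 3, and to 0 without C3H PBS 6 h replicate 2 or C3H PBS 24 h replicate 2 or 5. Atp5pb was also lost without C3H PBS 6 h replicate 1. The muscle covariate left 0, beside a skeletal muscle median difference of 1.31. Cycs, cytochrome c itself, rose by 0.82 ± 0.16 (adjusted p = 0.00168), the only one of 7 electron carriers to pass.

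At 24 h, allergen went with lower levels of 3 complex I genes in AJ mice and higher levels of 8 genes of complexes I, II and V in C3H mice. In AJ, 3 members fell and 0 rose, 67 of 81 differences were below 0, and the median was -0.15 against -0.00 over all genes. The share called among all genes was 3.28% lower and 4.56% higher, so the 3.7% of members that fell was close to that background. All 3 were complex I genes: Ndufb2, Ndufv1 and Ndufs7. Groups did not overlap for 7 of 81 members, against 8.67% of all genes. This comparison and that of 24 h with 6 h share the AJ PBS 24 h arrays.

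Ndufv1, the subunit that binds NADH and the flavin cofactor, read 9.30, 9.40, 9.59, 9.17 and 9.34 with PBS and 8.91, 8.80, 8.99, 8.96 and 8.78 with allergen. All allergen arrays lay below all PBS arrays. It fell by 0.47 (SE 0.12; adjusted p = 0.00764, limma), and its 2 other probe sets differed by -0.35 and -0.57. Ndufb2, an accessory subunit of the membrane arm, read 9.16, 9.15, 9.25, 8.90 and 9.60 with PBS and 8.57, 8.64, 8.89, 8.86 and 8.37 with allergen, also without overlap. Its fall was 0.55 (SE 0.17; adjusted p = 0.0356), and its second probe set differed by -0.44. Ndufs7, which carries the last iron-sulphur cluster before ubiquinone, dropped by 0.36 (SE 0.11; adjusted p = 0.0259), from 9.45 ± 0.16 to 9.09 ± 0.12 (SD, n = 5), and the groups overlapped at 9.24 and 9.26.

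The muscle isoforms fell most in this comparison. Cox7a1, the muscle form of subunit 7a and also a gene of brown fat, read 6.96, 7.95, 8.28, 7.02 and 7.85 with PBS and 5.81, 5.50, 6.74, 6.26 and 5.69 with allergen. Cox6a2 read 8.49, 9.62, 8.94, 8.65 and 9.34 against 7.98, 7.57, 7.93, 7.91 and 7.71. Cox8b read 8.19, 9.41, 9.97, 7.91 and 8.63 against 6.54, 6.58, 7.92, 6.90 and 6.71. Groups were apart for Cox7a1 and Cox6a2, and those of Cox8b met at 7.91 and 7.92. Cox7a1 fell by 1.61 (SE 0.36; adjusted p = 0.00256, limma), to 0.327 times the PBS level. Cox6a2 fell by 1.19 (SE 0.26; adjusted p = 0.00171), to 0.44 times, and Cox8b fell by 1.89 (SE 0.46; adjusted p = 0.00562), to 0.269 times. Each call held without any single array.

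Their broadly expressed partners gave small differences in the same arrays, 0.02 ± 0.11 (SE) for Cox6a1, -0.05 ± 0.11 for Cox7a2 and -0.13 ± 0.15 for Cox8a, none past the threshold. Of 12 cardiac markers 5 fell (median -1.16), and of 12 skeletal markers 1 fell (median -1.60). The cardiac sum ran from 3907 to 7878 with PBS and from 1615 to 2812 with allergen, without overlap, and the skeletal sum from 4539 to 15375 and from 530 to 10013. No cardiac marker averaged under an intensity of 16 in either group, and 1 of the skeletal markers did with allergen. Adipose markers had 2 of 6 lower, and brown adipose markers 1 of 5, which is Cox7a1 itself. With the muscle lists as a covariate, the difference was -0.78 for Cox7a1 (adjusted p = 0.0873), -0.63 for Cox6a2 (0.0641) and -0.97 for Cox8b (0.177), and 0 of the 81 members passed.

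**Figure D2:**
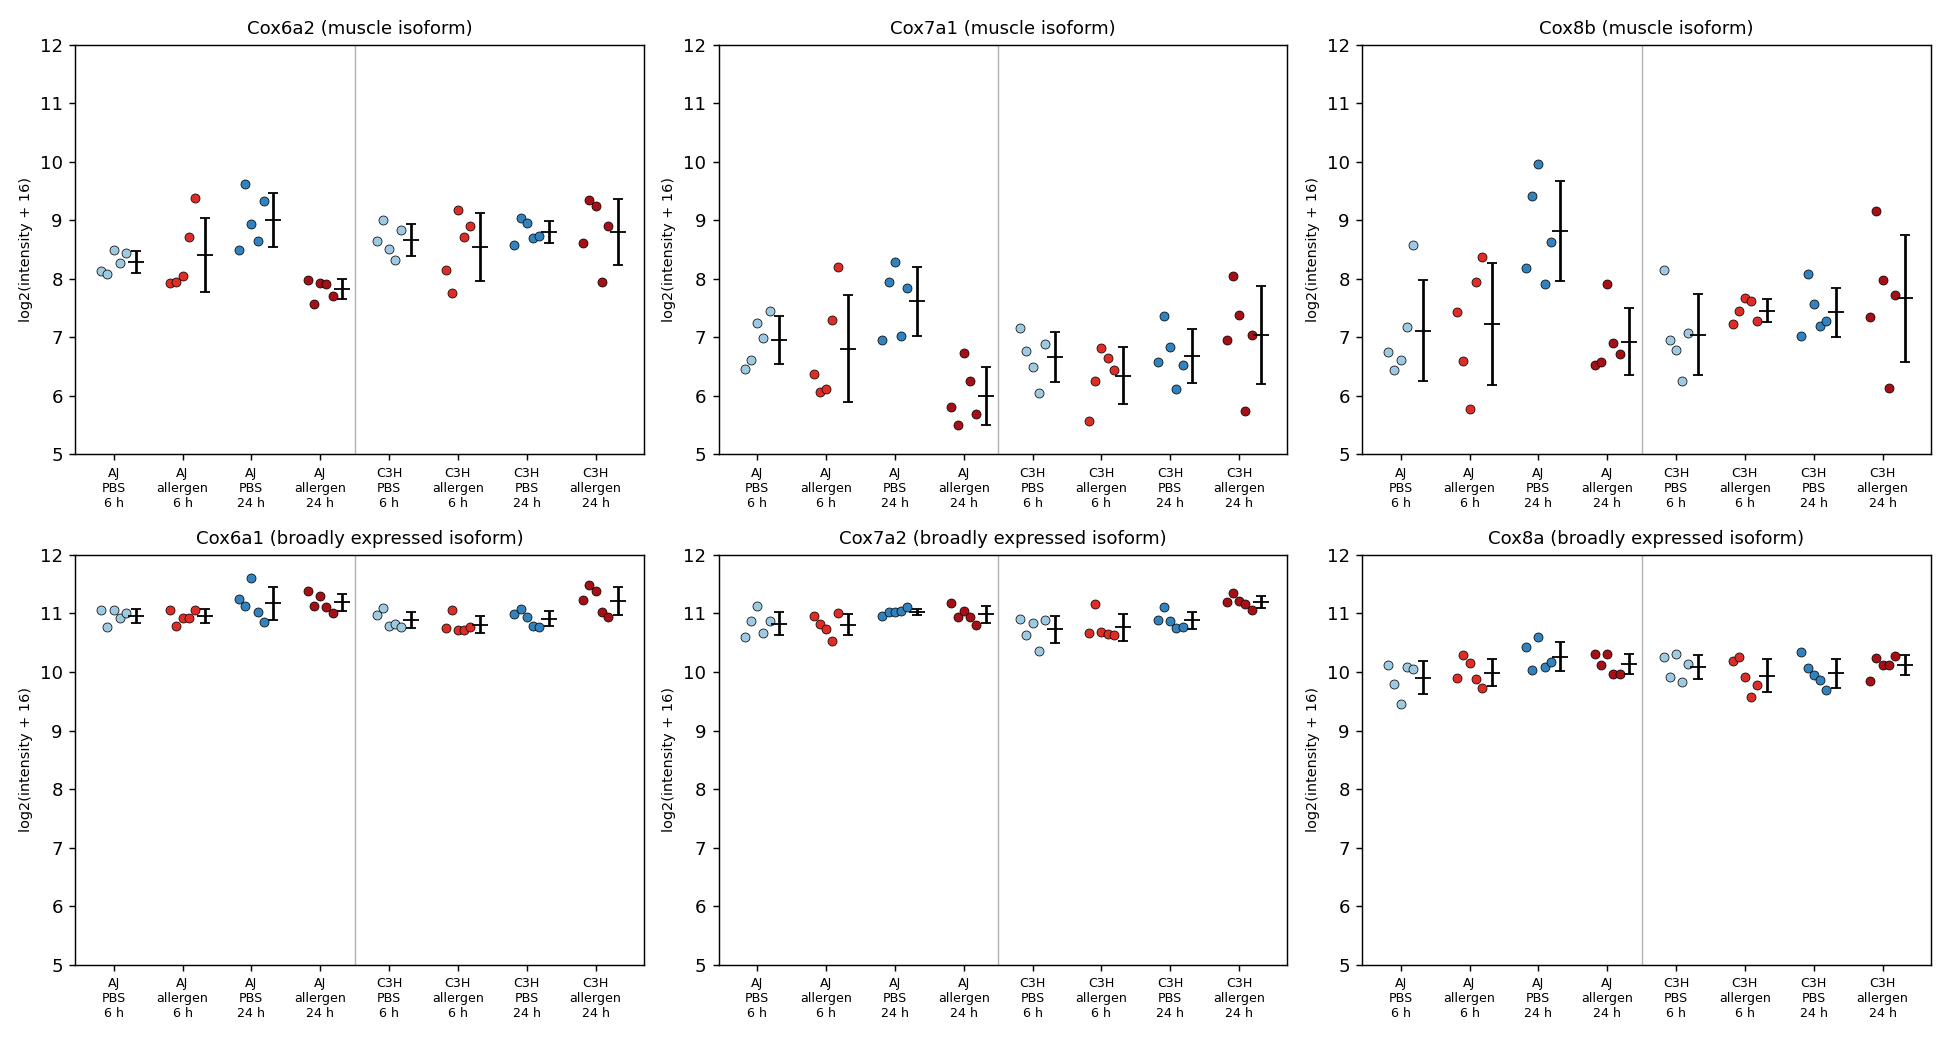
Log2(intensity + 16) of the 3 muscle isoforms Cox6a2, Cox7a1 and Cox8b and their broadly expressed partners Cox6a1, Cox7a2 and Cox8a, 1 point per array in 8 groups, with the group mean and SD. In AJ at 24 h the allergen arrays of Cox7a1 (5.50 to 6.74) lie below the PBS arrays (6.96 to 8.28), while those of the partner Cox7a2 differ by -0.05 in the mean.

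Markers of immune, alveolar, airway and endothelial cells also passed in these arrays. Those that rose were 7 of 9 macrophage, 2 of 7 neutrophil, 3 of 7 T and NK cell and 2 of 4 B and plasma cell markers. Those that fell were 2 of 8 alveolar, 2 of 4 club cell, 1 of 5 ciliated cell and 1 of 8 endothelial markers. The alveolar and club cell sums overlapped. The macrophage sum was 8038 to 10568 with allergen and 6111 to 7807 with PBS, and the ciliated cell sum 973 to 1321 and 1607 to 1772, each without overlap. What part such shifts have in the members' values was not tested. The muscle markers behind the covariate themselves differed between these groups, so that fit cannot tell muscle content and treatment apart. The count of 3 was 1 without AJ PBS 24 h replicate 2, 3 or 5 or AJ allergen 24 h replicate 1 or 5, and 5 without AJ allergen 24 h replicate 3. Ndufv1 passed without any single array, Ndufs7 was also lost without AJ allergen 24 h replicate 2, and Ndufb2 without that array or AJ PBS 24 h replicate 1.

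Fuel pathways gave few calls in AJ at 24 h, all of them falls. Acadvl (very long chain acyl-CoA dehydrogenase) fell by 0.50 (SE 0.15; adjusted p = 0.0289, limma) and Acaa2 (the last step of beta-oxidation) by 0.61 (SE 0.18; adjusted p = 0.0236), 2 of 9 fatty acid oxidation genes, whose median was -0.45. Ogdh, of the tricarboxylic acid cycle, fell by 0.50 (SE 0.16; adjusted p = 0.0421), the 1 of 14 to pass, with a median of -0.28. Slc25a4, the ADP/ATP carrier typical of muscle, fell by 0.58 (SE 0.16; adjusted p = 0.0172). None of 12 assembly factors, 14 regulators of mitochondrial biogenesis, 14 glycolytic or 74 mitochondrial ribosomal genes passed.

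In C3H mice at 24 h, allergen raised 8 members and lowered 0, and 71 of 81 differences were above 0, with a median of 0.25 against -0.04 over all genes. The share called among all genes was 2.1% higher and 1.15% lower, against 9.88% and 0% of members. The higher genes were 64.7% of all called, or 79.7% with each array centred on its median, and the member median with that centring was 0.30. The rises fell in complex I (Ndufb10, Ndufa2, Ndufa8 and Ndufb3, 4 of 34), complex II (Sdhd, 1 of 4) and complex V (Atp5g1, Atp5l and Atp5o, 3 of 17). None of the 8 complex III or 13 complex IV genes passed, with medians of 0.23 and 0.17. Most groups overlapped: only Ndufs5, Ndufb3 and Ndufc2 were apart, 3 of 81, against 4.6% of all genes.

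Sdhd, which anchors complex II in the membrane, read 8.17, 8.52, 7.99, 7.87 and 7.96 with PBS and 8.57, 9.28, 9.06, 8.67 and 8.46 with allergen. The lowest allergen array lay just below the highest PBS array. The rise was 0.70 ± 0.17 (SE; adjusted p = 0.0139, limma), while its second, dimmer probe set gave a difference of -0.00, and with both averaged the difference was 0.35 (adjusted p = 0.135). Atp5g1, one of the genes for the c-ring that turns in the membrane, read 8.58, 8.91, 8.29, 8.29 and 8.21 against 9.28, 9.17, 9.45, 8.85 and 9.0, and rose by 0.69 ± 0.17 (adjusted p = 0.0164). Only PBS replicate 2 reached into the range of the allergen arrays.

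Ndufb10, an accessory subunit of the membrane arm of complex I, read 8.0, 8.63, 8.20, 8.30 and 8.04 with PBS and 9.08, 9.26, 8.74, 8.5 and 8.72 with allergen. It rose by 0.63 ± 0.16 (SE; adjusted p = 0.0190, limma). Atp5l, subunit g of the membrane part of ATP synthase, rose by 0.52 ± 0.15 (adjusted p = 0.0488). The other 4 rose by 0.44 to 0.51: Atp5o, which joins the stalk to the head of ATP synthase, by 0.51 ± 0.13 (adjusted p = 0.0203), and the accessory complex I subunits Ndufa2 (0.47), Ndufa8 (0.46) and Ndufb3 (0.44).

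C3H PBS 24 h replicate 2 was the highest of its group in each of these 8 genes and the count was 13 without it, as it did without C3H allergen 24 h replicate 4. Without allergen replicate 1 or 2 the count was 1, without allergen replicate 3 it was 4, and without PBS replicates 1, 3, 4 and 5 it was 3, 3, 5 and 2. No call of the 8 held in every alternative, and with the model fitted to the C3H 24 h groups alone 0 passed. With the muscle covariate 11 passed, 10 higher and 1 lower, the 8 included. Muscle markers were not past the threshold in either list (medians 0.10 and -0.26), while 5 of 9 macrophage markers rose (median 0.79) and no alveolar, club or ciliated cell marker passed. The macrophage sum was 7780 to 10018 with allergen and 6523 to 8219 with PBS. The ciliated cell sum overlapped and leaned lower with allergen, at 1121 to 1391 (median 1274) against 1253 to 1526 (median 1450) with PBS. The part of either in the result was not tested.

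Some members did not follow the majority. Cox4i2, the lung-enriched isoform of subunit 4, differed by -0.65 ± 0.28 (SE) with allergen in C3H at 24 h (adjusted p = 0.200, limma), while its common partner Cox4i1 differed by 0.38 ± 0.14 (adjusted p = 0.127). Cox8c, a testis-type isoform of subunit 8, differed by -0.57 ± 0.17 (adjusted p = 0.0502). Neither passed. Related lists gave 0 calls among 14 tricarboxylic acid cycle genes (median 0.20), 9 fatty acid oxidation genes (0.14) and 14 glycolytic genes (0.11), 1 rise among 74 mitochondrial ribosomal genes and 4 among 45 cytosolic ribosomal genes (median 0.26). Cpt1a fell by 0.55 (SE 0.15; adjusted p = 0.0321).

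**Figure D3:**
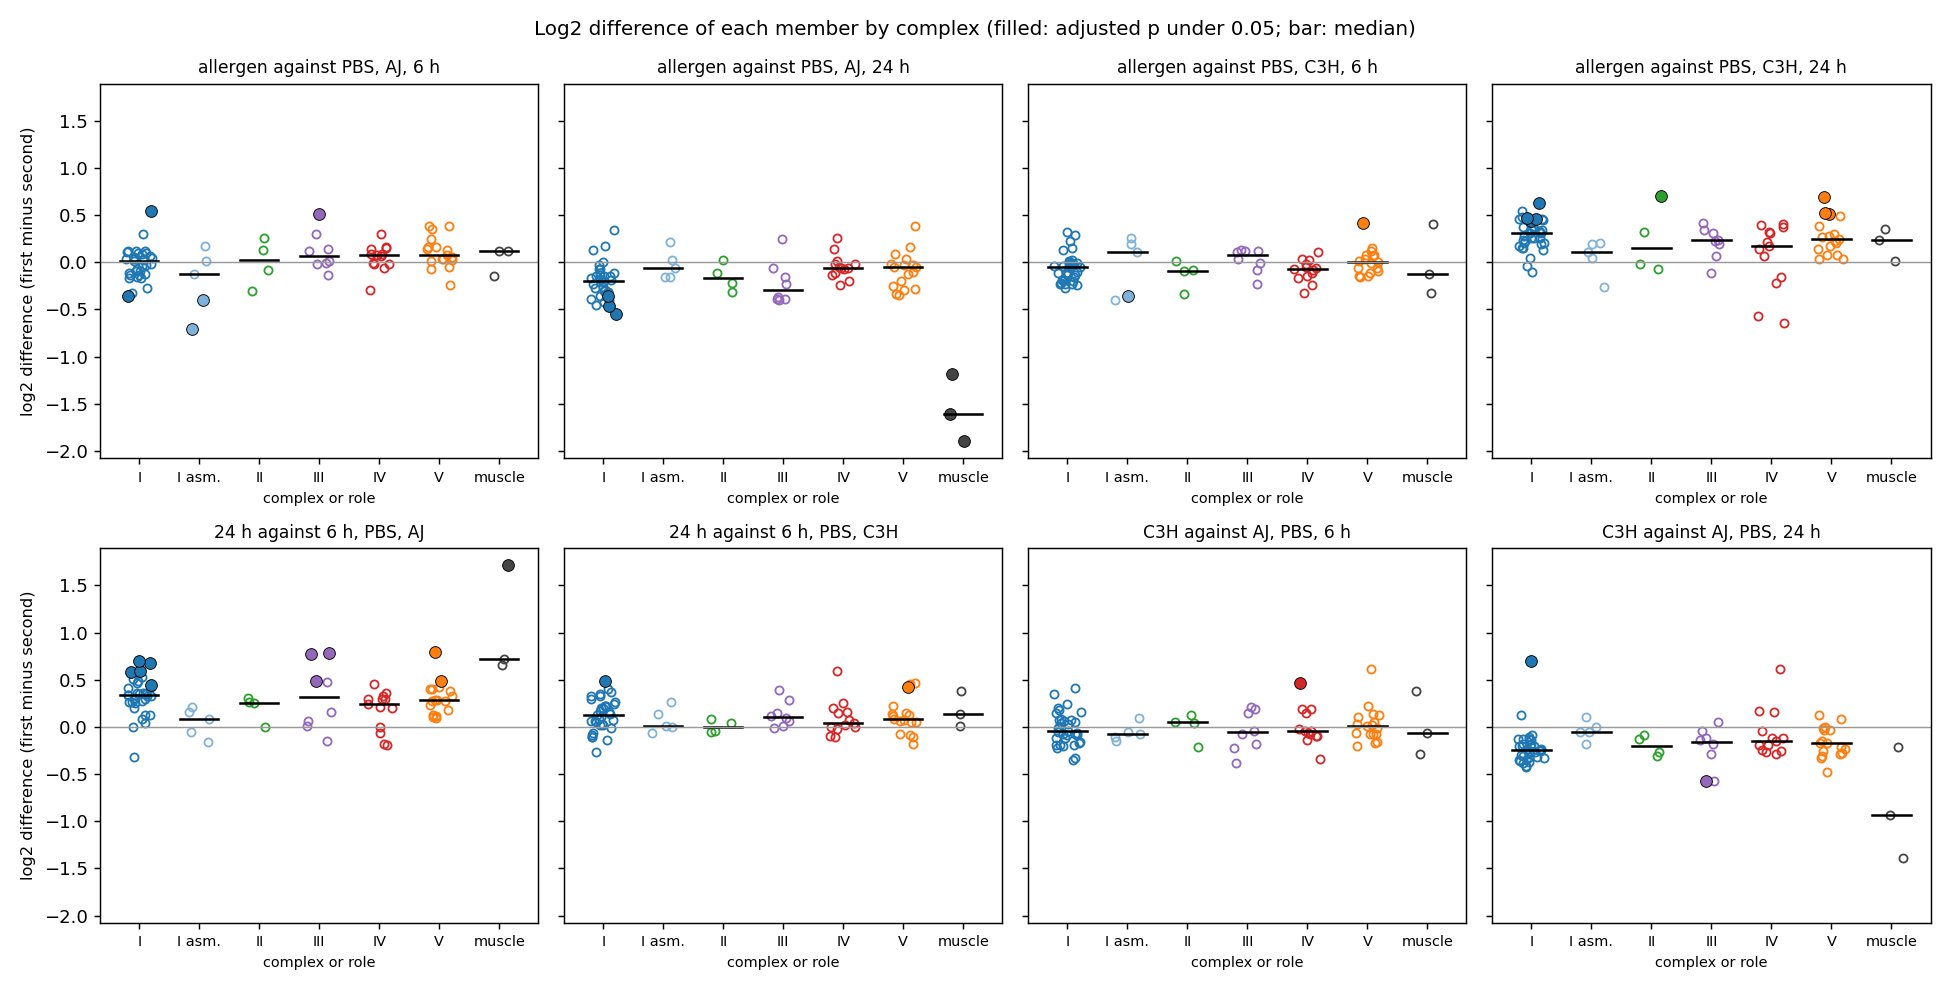
Log2 difference of each member in 8 comparisons of 2 groups (allergen against PBS by strain and time, 24 h against 6 h with PBS, and C3H against AJ with PBS), by complex or role, with the median as a bar and filled points for adjusted p under 0.05. At 24 h with allergen the complex I median is -0.20 in AJ and 0.31 in C3H, and from 6 h to 24 h in AJ PBS it is 0.33.

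The difference between strains was tested directly. At 24 h the allergen effect in C3H minus that in AJ was above 0 for 72 of 81 members, with a median of 0.41 against -0.04 over all genes, and it passed the threshold as higher for 3 and lower for 0. The share called among all genes was 0.226% higher and 0.234% lower. Higher genes made up 49.1% of all called, or 62.8% with each array centred on its median. Ndufb10 differed by 1.01 ± 0.22 (SE; adjusted p = 0.0269, limma), from an effect of -0.39 in AJ and 0.63 in C3H. Ndufb2 differed by 1.0 ± 0.24 (adjusted p = 0.0414), from -0.55 and 0.45. Atp5o differed by 0.85 ± 0.18 (adjusted p = 0.0209), from -0.34 and 0.51. The PBS arrays that enter this test differed too: at 24 h, 71 of 81 members had a lower mean in C3H than in AJ.

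Second probe sets gave differences of 0.85 for Ndufb2 and 0.53 for Atp5o in the same test. The muscle isoforms differed by 1.96 ± 0.51 (SE) for Cox7a1, 2.13 ± 0.65 for Cox8b and 1.19 ± 0.36 for Cox6a2, with adjusted p of 0.0699, 0.134 and 0.131 (limma), so none passed. Of genes outside the families, Fh1 (fumarase) differed by 0.87 ± 0.20 (adjusted p = 0.0366) and Slc25a4 by 0.97 ± 0.23 (adjusted p = 0.0406). With the muscle covariate 0 members passed and the median was 0.29. None of the cardiac, skeletal or adipose markers passed in this test, although their median differences were 1.35, 1.30 and 1.07. The count was 0 without AJ PBS 24 h replicate 5, AJ allergen 24 h replicate 2, C3H PBS 24 h replicate 1 or C3H allergen 24 h replicate 1, and 1 without C3H PBS 24 h replicate 5. It was 6 without AJ PBS 24 h replicate 4, 8 without C3H PBS 24 h replicate 2 and 10 without C3H allergen 24 h replicate 4. Ndufb2 was lost in 18 of 30 alternatives, among them every single array left out except AJ PBS 24 h replicate 4, AJ allergen 24 h replicates 3 and 4, C3H PBS 24 h replicate 2 and C3H allergen 24 h replicate 4.

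At 6 h few members passed with allergen, and their shares were below those of all genes. In AJ, 2 members rose and 3 fell, against 7.03% and 12% of all genes, and the median was 0.03 against -0.07 over all genes. Of all called genes 36.9% were higher, or 48.9% with each array centred on its median, and the member median was 0.09 with that centring and -0.00 with quantile normalization. Of the 5 complex I assembly factors 2 fell (Ndufaf3 and Ndufaf7), together with Ndufs7, while Ndufb1 and Uqcrfs1 rose. Groups were apart for 3 of 81 members (Ndufaf3, Ndufaf7 and Ndufb1), against 13.5% of all genes.

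Ndufaf3, which acts early in building complex I, read 7.69, 7.90, 7.71, 7.81 and 7.75 with PBS and 7.38, 7.36, 7.20, 7.52 and 7.42 with allergen in AJ at 6 h. It fell by 0.40 (SE 0.09; adjusted p = 0.00161, limma). In C3H at 6 h it read 8.14, 8.16, 7.77, 7.61 and 7.67 against 7.50, 7.49, 7.56, 7.47 and 7.54 and fell by 0.36 (SE 0.09; adjusted p = 0.0127). All allergen arrays lay below all PBS arrays in both strains. Ndufaf7, a methyltransferase that modifies complex I during assembly, read 5.97, 6.22, 6.60, 6.12 and 6.37 against 5.80, 5.94, 5.72, 5.62 and 4.65 in AJ and fell by 0.71 (SE 0.17; adjusted p = 0.00235), or by 0.49 without AJ allergen 6 h replicate 5 (adjusted p = 0.0175). Its difference in C3H was -0.40 ± 0.17 (adjusted p = 0.179) and did not pass, although those groups did not overlap.

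Ndufb1, a small accessory subunit of complex I, read 6.08, 6.40, 6.48, 6.60 and 6.36 with PBS and 6.92, 6.91, 6.94, 6.78 and 7.05 with allergen in AJ at 6 h, with no overlap. The rise was 0.54 ± 0.15 (SE; adjusted p = 0.00699, limma). Ndufb1, Ndufaf3 and Ndufaf7 passed in all 20 alternatives in AJ at 6 h. Each has only 1 probe set, so the mean of all probe sets left their values unchanged and was no test of them. Uqcrfs1, the Rieske iron-sulphur protein of complex III, rose by 0.51 ± 0.16 (adjusted p = 0.0192), with AJ PBS 6 h replicate 5 at 9.37 inside the allergen range of 9.02 to 9.41, and was lost without AJ PBS 6 h replicate 1, 3 or 4 or AJ allergen 6 h replicate 2. Ndufs7 fell by 0.36 (SE 0.11; adjusted p = 0.0131), with a second probe set at -0.37, and was lost without AJ allergen 6 h replicate 1.

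Some assembly factors of the other complexes and regulators of mitochondrial gene expression also passed as lower in AJ at 6 h, where 12% of all genes did. Of 12 assembly factors 4 fell and 0 rose: Oxa1l, which inserts proteins into the inner membrane, by 0.91 (SE 0.17; adjusted p = 0.000113, limma), Sco2, a copper chaperone of complex IV, by 0.68 (SE 0.19; adjusted p = 0.00763), Surf1 by 0.59 (SE 0.11; adjusted p = 0.000146) and Cox15 by 0.39 (SE 0.12; adjusted p = 0.0183). Of 14 regulators 4 fell: Tfb1m by 0.52, Yy1 by 0.51, and Polg and Polrmt, the polymerases of mitochondrial DNA and RNA, by 0.47 each. Mitochondrial ribosomal genes had 12 of 74 lower and 2 higher. Glycolysis had 3 of 14 higher, led by Hk2 (hexokinase 2), which rose by 1.37 ± 0.18 (adjusted p = 3.48e-07).

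Neutrophil markers had risen in the same arrays, 6 of 7, with a sum of 5668 to 8321 against 648 to 1423 with PBS. Macrophage markers had 5 of 9 higher, T and NK cell 2 of 7, B and plasma cell 2 of 4, while 3 of 8 endothelial, 2 of 8 alveolar, 1 of 5 ciliated and 1 of 4 erythroid markers fell. Their part in the values of Ndufaf3, Ndufaf7, Ndufb1 and the related lists was not tested.

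In C3H at 6 h, 1 member rose and 1 fell, against 3.93% and 3.69% of all genes, with a median of -0.05. The fall was that of Ndufaf3, given above. Atp5pb rose by 0.41 ± 0.12 (SE; adjusted p = 0.0195, limma), with a second probe set at 0.41. It read 9.55, 9.30, 9.72, 9.63 and 9.72 with PBS and 9.69, 10.01, 10.10, 9.94 and 10.23 with allergen, so that the lowest allergen array lay within the PBS range. Groups were apart for 2 of 81 members, against 5.7% of all genes. The count was 0 without C3H PBS 6 h replicate 2, 1 without C3H allergen 6 h replicate 5 and 4 without C3H PBS 6 h replicate 4, and Ndufaf3 was also lost without C3H PBS 6 h replicate 1. Surf1 fell by 0.40 (SE 0.11; adjusted p = 0.0220) and Sco2 by 0.65 (SE 0.19; adjusted p = 0.0263), 2 of 12 assembly factors. Cycs rose by 0.67 ± 0.16 (adjusted p = 0.00514), while the fatty acid oxidation genes Hadh and Acaa2 fell by 0.60 and 0.66. Neutrophil markers had 3 of 7 and macrophage markers 4 of 9 higher.

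The strain difference of the allergen effect at 6 h passed for 0 members in either direction (limma), against 1.15% of all genes higher and 1.01% lower. Of all called genes 53.2% were higher, or 33.3% with each array centred on its median. Ndufaf3 differed between strains by 0.04 and Ndufaf7 by 0.31, neither past the threshold. Among the regulators, Tfb1m differed by 0.88 ± 0.18 (SE; adjusted p = 0.00347) and Polg by 0.51 ± 0.14 (adjusted p = 0.0456), from effects of 0.36 and 0.04 in C3H, neither past the threshold.

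Between times, the allergen effect in AJ at 24 h minus that at 6 h was below 0 for 65 of 81 members, with a median of -0.19 against 0.06 over all genes. It passed as lower for 1 and higher for 0, against 2.1% and 3.53% of all genes. Higher genes made up 62.7% of all called, or 51.3% with each array centred on its median. The 1 was Uqcrfs1, at -0.74 ± 0.22 (SE; adjusted p = 0.0437, limma), which had risen at 6 h and differed by -0.23 at 24 h. Leaving out 14 of the 20 arrays of these groups one at a time ended this call: all replicates but 4 of AJ PBS 24 h, all but 5 of AJ PBS 6 h, replicates 1, 4 and 5 of AJ allergen 24 h and 2, 4 and 5 of AJ allergen 6 h. Cox6a2 differed by -1.30 ± 0.36 (adjusted p = 0.0238), a call lost without AJ PBS 24 h replicate 2, without AJ allergen 6 h replicate 5 and with the muscle covariate. Cox8b and Cox7a1 differed by -2.01 and -1.47 and did not pass.

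In C3H the same difference between times was above 0 for 70 of 81 members, with a median of 0.31 against -0.04. No member passed in either direction (limma), against 0.436% of all genes higher and 0.444% lower. Of all called genes 49.5% were higher, or 60.4% with each array centred on its median. The count was 5 without C3H PBS 6 h replicate 4, 2 without C3H PBS 24 h replicate 2, and 1 without C3H allergen 24 h replicate 4 or C3H allergen 6 h replicate 2.

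Without allergen, the strains differed in few members. At 6 h 1 was higher in C3H and 0 lower, against 2.36% and 2.1% of all genes, and the median was -0.04. This was Cox6b2, a testis-type isoform of subunit 6b, at 6.49, 6.34, 6.5, 6.43 and 6.42 in AJ and 6.57, 7.37, 6.70, 6.92 and 6.94 in C3H. The groups did not overlap, and the difference was 0.47 ± 0.12 (SE; adjusted p = 0.0179, limma). It was lost without AJ PBS 6 h replicate 2 or C3H PBS 6 h replicate 2, and the count was 2 without C3H PBS 6 h replicate 4. The common isoform Cox6b1 differed by -0.10 ± 0.12. Groups were apart for 1 of 81 members, against 4.37% of all genes.

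At 24 h after PBS, 71 of 81 members had a lower mean in C3H than in AJ, with a median of -0.20 against 0.00 over all genes, and 1 was called lower and 1 higher, against 0.839% and 1.09% of all genes. Uqcrq was lower by 0.57 (log2 difference -0.57, SE 0.15; adjusted p = 0.0393, limma), with other probe sets at 0.26, -0.15 and 0.00. Ndufs4, an accessory subunit next to the NADH-binding end of complex I, was higher in C3H, at 7.70, 8.10, 7.91, 7.53 and 7.57 against 7.12, 7.39, 6.62, 7.23 and 6.97. These groups did not overlap, and the difference was 0.70 ± 0.15 (adjusted p = 0.00495). At 6 h Ndufs4 differed by 0.35 ± 0.15 (adjusted p = 0.204). Its 2 dimmer probe sets gave -0.08 and -0.07 at 24 h, and with all probe sets averaged the difference was 0.18 (adjusted p = 0.546). Ndufs4 levels did not change past the threshold with allergen in either strain.

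Groups were apart for 4 of 81 members in this strain comparison, against 4.27% of all genes. The count was 1 without AJ PBS 24 h replicate 2, 3 or 5 or C3H PBS 24 h replicate 1, 4 or 5, 4 without C3H PBS 24 h replicate 2 and 5 without AJ PBS 24 h replicate 4, and Uqcrq was also lost without C3H PBS 24 h replicate 3. Skeletal muscle markers had a median difference of -0.73 and cardiac markers of -0.19, with 0 of 12 and 2 of 12 past the threshold, 1 in each direction. The ciliated cell sum was lower in C3H without overlap, at 1253 to 1526 against 1607 to 1772, while 0 of 5 of its markers passed (median -0.15), and its part in the members' values was not tested. Among other mitochondrial genes, Acadvl was lower in C3H by 0.61 (log2 difference -0.61, SE 0.15; adjusted p = 0.0152) and Acaa2 by 0.70 (-0.70, SE 0.18; adjusted p = 0.0213). Comparisons that share the C3H PBS 24 h or AJ PBS 24 h arrays are not independent of each other.

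**Figure D4:**
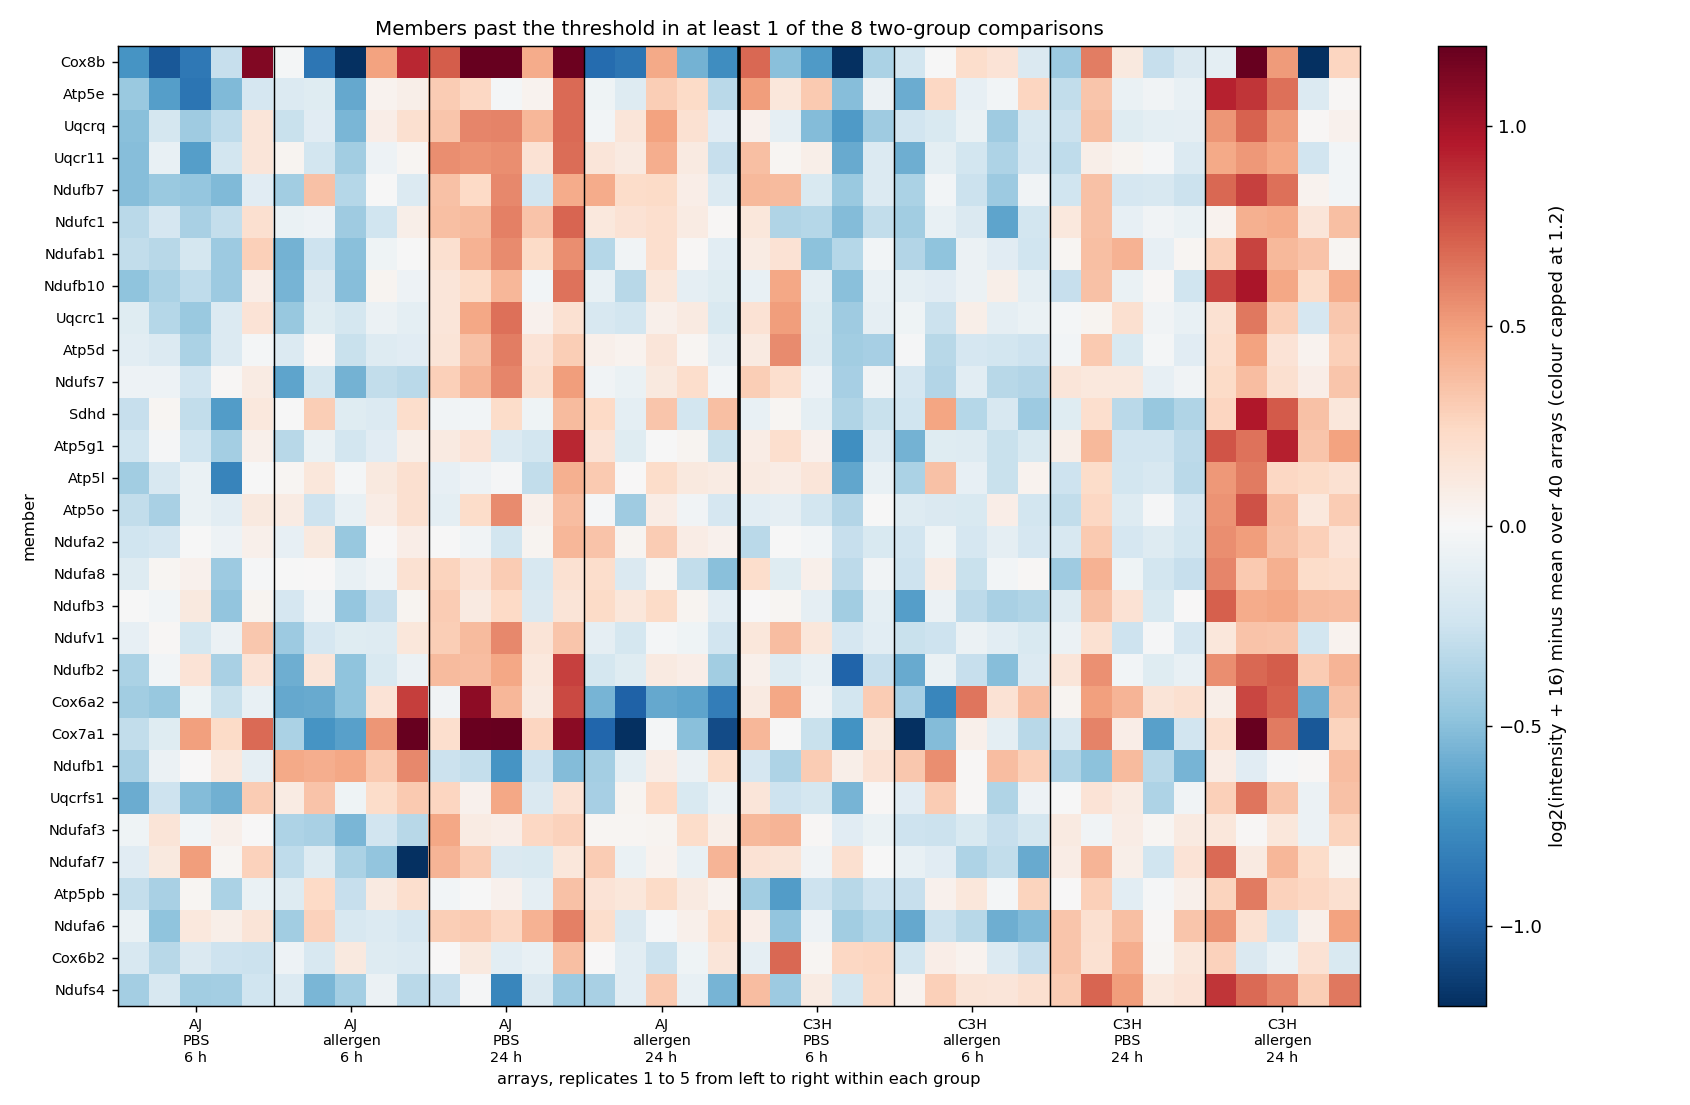
Log2(intensity + 16) minus the mean over 40 arrays for the 30 genes, muscle isoforms included, that passed in at least 1 of the 8 comparisons of 2 groups, with arrays in columns by group and colour from blue (low) to red (high). Red is densest in the AJ PBS 24 h and C3H allergen 24 h columns. Many of the genes were drawn because they passed as higher in those groups, so this density follows from the choice of genes. Ndufaf3 and Ndufaf7 are lowest on average in AJ allergen 6 h (7.38 and 5.55).

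Isoform pairs gave a last view of the families. Cox4i2 and Cox4i1, Cox6b2 and Cox6b1, and Ndufa4 showed no change past the threshold with allergen in either strain at either time. Ndufa4 differed by 0.48 ± 0.16 (SE) from 6 h to 24 h in AJ PBS mice (adjusted p = 0.0713, limma). Across the 12 comparisons, muscle isoforms passed 5 times, always in AJ: all 3 with allergen at 24 h, Cox8b with time after PBS, where it rose by 1.71 ± 0.46 (adjusted p = 0.0216), and Cox6a2 in the test between times. The Cox8b rise was lost without AJ PBS 24 h replicate 2 or 3 or AJ PBS 6 h replicate 2 or 3. Its partner Cox8a differed by 0.36 ± 0.15 in that comparison (adjusted p = 0.144).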

How the data were processed

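Total RNA of mouse lung was measured on 40 one-colour arrays, 5 in each of 8 groups read from the titles. The authors deposited linear probe set intensities. How they were computed is not given in the sources used here, but their 2% trimmed mean is nearly the same on every array (150.036 to 150.046), so arrays had been scaled to a common level, while array medians ran from 63.8 to 81.4. The arrays hold 22690 probe sets, of which 64 are controls; 20380 carried 1 gene symbol in GEO's platform annotation, which can be old, 691 several and 1555 none. The brightest probe set stood for each of 12393 genes, and 45 members had more than 1. No 2 arrays held identical values.

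Values were taken to log2(intensity + 16), and 0.149% of member values lay under the pseudocount of 16. limma 3.58.1 (R 4.3.3) fitted 8 group means over all genes (32 residual degrees of freedom) and tested 12 contrasts, two-sided, with Benjamini-Hochberg adjustment over all genes of each and a threshold of 0.05. The procedure was tested on simulated data for allergen in C3H at 24 h only, with noise independent between genes. Replicate numbers did not pair the arrays. Members, related lists and markers were chosen with earlier results of these data known, so no list is independent support. Named were, per contrast, up to 4 of the largest rises and falls past the threshold, the isoform pairs and the brightest member of each complex; other genes past the threshold were named by list. The alternatives left out each array in turn, took the mean of all probe sets, added the replicate number as a block or the mean of the muscle markers as a covariate, used a trended prior variance, fitted only the groups compared, dropped the dimmest 25% of genes, set the pseudocount to 1 or 64, or rescaled the arrays by quantiles or by their medians.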

Additional observations from a re-analysis of the deposited data

Results flagged for a closer look

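Groups of 5 arrays were examined for genes past the threshold and for averages over the members, the muscle isoforms and each complex. Among 125 such groups, 9 held an array far from the other 4, where chance gives about 1 in 20. Ndufaf7 was at 4.65 in AJ allergen 6 h replicate 5 (others 5.62 to 5.94). Cox8b was at 7.92 in AJ allergen 24 h replicate 3 (others 6.54 to 6.90). In C3H PBS 24 h replicate 2, Atp5l was at 9.22 (others 8.68 to 8.81), Ndufa2 at 9.0 (others 8.47 to 8.53) and Uqcrq at 9.15 (others 8.53 to 8.68). Ndufb3 was at 9.47 in C3H allergen 24 h replicate 1 (others 9.12 to 9.22). Ndufb7 was at 9.10 in AJ PBS 6 h replicate 5 (others 8.71 to 8.79). Uqcr11 was at 9.05 in AJ PBS 24 h replicate 4 (others 9.42 to 9.55). The mean over complex IV was 9.13 in C3H PBS 6 h replicate 4 (others 9.26 to 9.30).

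The allergen effect differed between strains at 24 h, by limma's test of that difference, for Atp5o (0.85), Ndufb2 (1.0) and Ndufb10 (1.01, C3H minus AJ). Between times in AJ it differed for Cox6a2 (-1.30) and Uqcrfs1 (-0.74, 24 h minus 6 h).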

How the results depend on the processing

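Of 890 recomputed values of the 42 member results past the threshold, 682 kept their direction and stayed past it, 208 kept their direction without passing, and 0 reversed. Counts are of the 81 members past the threshold, and the cause of each shift was not tested. The number of arrays limits precision, and differences of dim members such as Ndufaf7 are understated by the pseudocount.

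For allergen in AJ at 24 h the count of 3 was 1 with median centring and 0 with muscle markers as covariate. For allergen in C3H at 6 h the 2 became 4 with the mean of all probe sets and 0 with only the groups compared in the fit. In C3H at 24 h the 8 became 5 with quantile normalization, 5 with a pseudocount of 1 and 0 with only the groups compared. The strain difference at 24 h went from 3 to 0 with muscle markers. The time difference in AJ went from 1 to 0 with quantile normalization, median centring, a pseudocount of 1, muscle markers or only the groups compared. That in C3H went from 0 to 1 with a pseudocount of 64, without the dimmest genes or with a trended prior, to 3 with the mean of all probe sets and to 2 with muscle markers. For C3H against AJ with PBS at 6 h, 1 became 2 with the mean of all probe sets or muscle markers and 0 with only the groups compared. At 24 h, 2 became 6 with quantile normalization, 1 with median centring or a pseudocount of 1, 5 with a pseudocount of 64 and 4 without the dimmest genes. For 24 h against 6 h with PBS in AJ, 10 became 18 with quantile normalization and 3 with muscle markers. In C3H, 2 became 1 with median centring or a pseudocount of 1, and 0 with muscle markers or only the groups compared.

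Same-numbered arrays deviated together about as much as others, with a median r of 0.0014 (140 pairs, 36 over 0.1) against -0.0065 for other numbers. Of 40 arrays, 10 correlated best with their own number, and the numbers were not taken as pairs. With the replicate number as a block, the time difference in C3H gave 1 member, 24 h against 6 h in AJ gave 16, and allergen in C3H at 24 h gave 12.

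Leaving out each array in turn, counts ranged from 4 to 6 for allergen in AJ at 6 h, 1 to 5 in AJ at 24 h, 0 to 4 in C3H at 6 h and 1 to 13 in C3H at 24 h. They ranged from 0 to 10 for the strain difference at 24 h, stayed at 0 at 6 h, and ranged from 0 to 1 and 0 to 5 for the time differences in AJ and C3H. For C3H against AJ they ranged from 0 to 2 at 6 h and 1 to 5 at 24 h, and for 24 h against 6 h from 6 to 19 in AJ and 0 to 6 in C3H.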
